A study of Mus musculus with 6 samples.

Results

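The 47 mouse genes described here encode the secreted and cell-surface machinery of Wnt signalling, together with Axin2, a target gene that reads the pathway's output. They were taken by symbol from the platform annotation of an Affymetrix mouse expression array: all Wnt ligands, Frizzled receptors, the coreceptors Lrp5 and Lrp6, the antagonists Sfrp1 to Sfrp4, Dkk1 to Dkk4 and Wif1, the R-spondins Rspo1 to Rspo4, the receptors Lgr4 to Lgr6, and Axin2. Of 18193 genes with an unambiguous symbol, 47 matched, 19 of them ligands, 10 Frizzled receptors, 2 LRP coreceptors, 8 antagonists, 7 R-spondins or LGR receptors, and Axin2. The gene of SFRP3 carries the symbol Frzb and was not taken by this rule. Where a gene had several probe sets, the one brightest on average over the 6 arrays stands for it, and 30 of the 47 had a mean at or above the detection filter of 5.22 on the log2 scale, the 40th percentile of probe sets with a single gene symbol. The other 17 lay below it and were not tested.

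Wnt proteins are secreted lipid-modified ligands that bind Frizzled receptors. In the canonical branch, Frizzled and LRP5 or LRP6 together stop the destruction of beta-catenin, which then joins TCF/LEF factors on target genes. SFRP and WIF1 proteins bind the ligands, DKK1 blocks the LRP coreceptors, and R-spondins acting through LGR receptors keep Frizzled at the cell surface by holding back the ubiquitin ligases RNF43 and ZNRF3. In fat, canonical Wnt signals such as Wnt10b are known to hold precursor cells back from becoming fat cells, and some antagonists are made by the tissue as it expands.

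Total RNA came from epididymal white fat of male C57BL/6 mice aged 16 weeks on chow with free access to food. Both genotypes carried floxed Fto (FTO flox/flox), the gene of an RNA demethylase, and the AFO mice carried Adiponectin-cre in addition, a recombinase expressed in fat cells and not in the other cells of the pad. Each genotype was measured on 3 arrays, each from its own RNA pool. Pools are numbered here by the replicate number in the labels. An equal number does not mean a shared pool, and the labels state no pairing. A difference within a pool number is that between the control and AFO arrays of equal number. How many mice made a pool is not given in the sources used here. The p-values measure the spread between these pools. In whole tissue, fewer cells of a type and less RNA per cell cannot be told apart.

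The arrays had nearly equal medians, from 5.35 to 5.43. Adipoq, which encodes the fat cell hormone adiponectin, read 13.14 to 13.43 on all of them. The Fto probe set gave 6.11, 6.20 and 5.59 in control pools 1 to 3 and 6.13, 5.45 and 5.95 in the AFO pools, overlapping between genotypes. Where its probes lie relative to the deleted part is not given in the sources used here, so it is no check of the deletion. In both genotypes the array of pool 2 was unlike the other 4 in its tissue markers. All 11 mesothelial markers were lower there, with a median gap of -3.30, and Msln, a surface protein of the mesothelium that covers visceral fat, read 4.82 and 4.35 in pool 2 against 8.32 to 8.71 elsewhere. All 12 skeletal muscle markers (median gap 4.63), all 9 B cell markers (2.68) and all 10 T and NK cell markers (2.07) were higher in pool 2. Skeletal muscle markers were also high in AFO pool 1, with a median of 9.50 there, 9.31 and 11.87 in pool 2 and 4.501 to 4.85 on the remaining arrays, and their summed log2 signal ran from 8.68 to 13.26 in control and from 9.17 to 15.56 in AFO arrays. The summed mesothelial signal ran from 9.34 to 11.85 on the log2 scale in the control arrays and from 8.80 to 11.74 in the AFO arrays. Values in every array, or within each pool, are therefore given for the members the results turn on.

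None of the 30 Wnt members tested differed between AFO and control fat beyond the spread between pools. With limma and Benjamini-Hochberg adjustment over all 12513 genes tested, 0 of 30 members passed an adjusted p of 0.05, and so did 0 of all genes (0%). At an unadjusted p of 0.05 the counts were 0 of 30 and 120 genes (0.959%). In 13 members the AFO mean was higher and in 17 lower, with a median difference of -0.027 beside -0.015 over all genes tested. The largest differences were 0.49 for Axin2 and -0.35 for Wnt9a. In 0 of 30 members did all AFO values lie below all control values, where 1.43% of all genes did, and in 0 of 30 above, where 2.00% did (3.43% together). The sign was the same within all 3 pools in 8 of 30 members and in 23.5% of all genes. With a block for pool number 0 members passed (0.0160% of all genes), and 3 had an unadjusted p under 0.05 (Axin2, Fzd4 and Wnt9a) where 4.24% of all genes did. Without both pool 2 arrays the AFO minus control values of many members moved. Among those that grew were Fzd6 (0.51), Rspo1 (0.39), Sfrp2 (-0.39), Fzd2 (-0.45), Sfrp4 (0.23) and Wnt7a (0.19), and that of Fzd4 shrank to -0.20. The sign turned for Lrp5 (0.42), Fzd1 (0.18), Dkk3 (0.11), Wnt7b (0.093), Lrp6 (0.083), Wnt5a, Wnt11, Fzd5 and Fzd8. None of the 30 members was called in that fit (0.591% of all genes were).

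**Figure D1:**
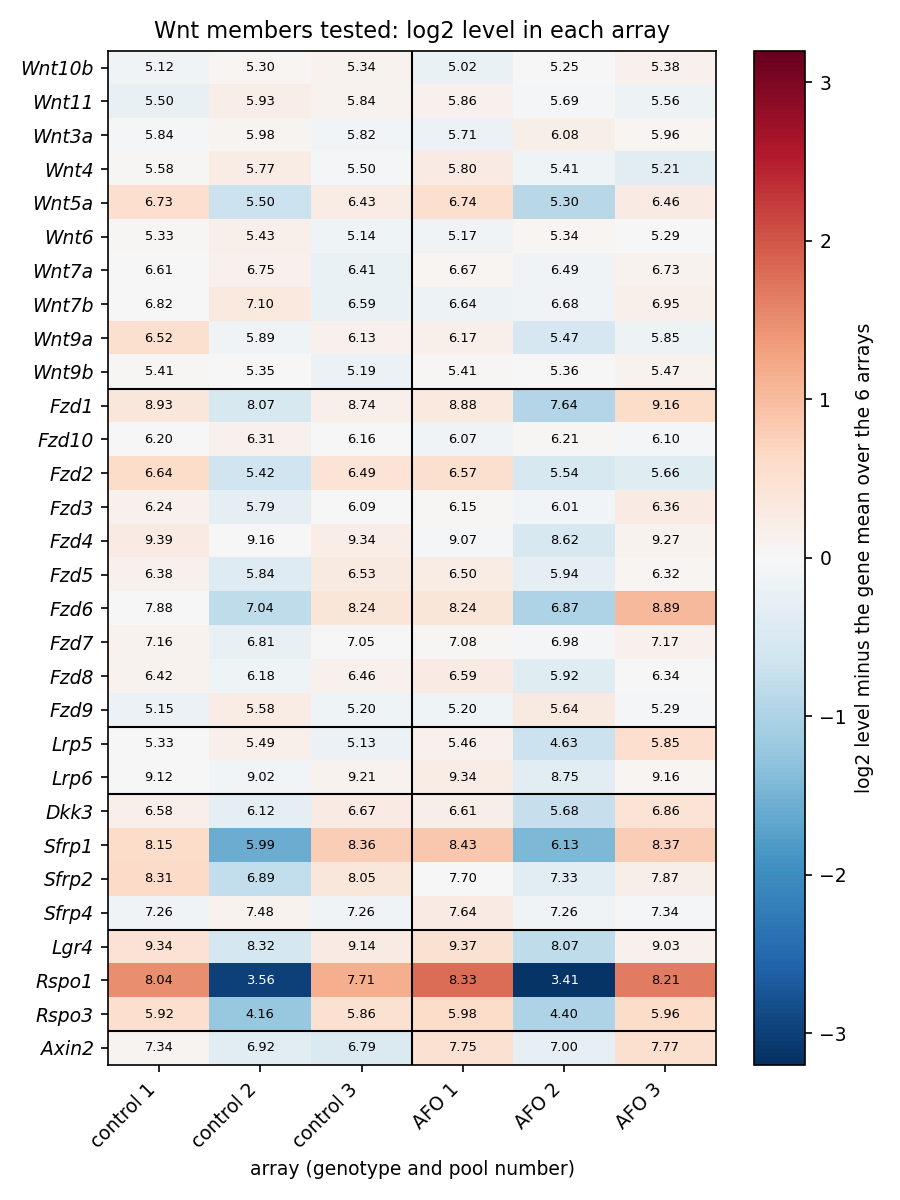
Log2 level of each of the 30 Wnt members tested (rows, in blocks from top to bottom of ligands, Frizzled receptors, LRP coreceptors, antagonists, R-spondins with Lgr4, and Axin2) in each of the 6 arrays (columns, genotype and pool number), printed in each cell. Colour is the level minus the gene's mean over the 6 arrays. Rspo1 reads 3.56 and 3.41 in pool 2 and 7.71 to 8.33 elsewhere, and the pool 2 columns hold the darkest blue cells.

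The median absolute pool 2 gap of the members was 0.39 and their median absolute genotype difference 0.080, beside 0.26 and 0.090 over all genes tested. By kind of member, the 3 tested R-spondin and LGR genes had the widest median gap (-1.65), and the widest single gap was that of Rspo1. Rspo1 (Entrez gene 192199), a secreted amplifier of Wnt signals, read 8.04, 3.56 and 7.71 in control pools 1 to 3 and 8.33, 3.41 and 8.21 in AFO pools 1 to 3. Its pool 2 mean lay 4.59 log2 units below that of the other 4 arrays, and of the 12513 genes tested 1 had a lower gap. Rspo3, a second R-spondin, read 5.92, 4.16 and 5.86 in control and 5.98, 4.40 and 5.96 in AFO fat. Both R-spondins were low in pool 2 of each genotype, and neither separated the genotypes. Lgr4, the R-spondin receptor among the tested members, read 9.34, 8.32 and 9.14 in control and 9.37, 8.07 and 9.03 in AFO fat, a pool 2 gap of -1.02. With the pools of a genotype this far apart, the AFO minus control interval of Rspo1 ran from -3.87 to 4.30 around a difference of 0.22, and its differences within pools 1, 2 and 3 were 0.29, -0.14 and 0.50. The remaining 4 genes of this group, Rspo2, Rspo4, Lgr5 and Lgr6, lay below the filter.

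Sfrp1 (Entrez gene 20377), which encodes a secreted protein that binds Wnt ligands, stood next to Rspo1 in the size of its pool gap. It read 8.15, 5.99 and 8.36 in control and 8.43, 6.13 and 8.37 in AFO fat. Sfrp2, a relative of Sfrp1, read 8.31, 6.89 and 8.05 in control and 7.70, 7.33 and 7.87 in AFO fat, again lowest in pool 2. Dkk3, a secreted DKK family protein, had a gap of -0.78. Sfrp4, another secreted Frizzled-related protein, did not share this: it read 7.26, 7.48 and 7.26 in control and 7.64, 7.26 and 7.34 in AFO fat, a gap of -0.0052. Its pool 2 values were the highest of the controls and the lowest of the AFO arrays. Between genotypes these 4 antagonists differed by -0.12 (Sfrp2) to 0.14 (Sfrp1), each less than its standard error in the fit without pairing. With a block for pool number the standard error of Sfrp1 was 0.11, below its difference, and it was not called (limma adjusted p = 0.990). Sfrp5, an antagonist outside the symbol rule and on the fixed list of modulators, went the other way, at 6.73 and 6.90 in pool 2 and 6.07 to 6.25 elsewhere. Frzb, named after its values were seen, read 4.22 and 4.49 in pool 2 and 4.74 to 5.45 elsewhere, below the filter.

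Counted over all members tested, 7 of 30 lay at least 1 log2 unit lower in pool 2, where 4.07% of all genes tested did, and 0 of 30 lay at least 1 unit higher, where 3.16% did. The 7 were Rspo1 (-4.59), Sfrp1 (-2.27), Rspo3 (-1.65), Fzd6 (-1.36), Wnt5a (-1.19), Fzd1 (-1.07) and Lgr4 (-1.02), and just outside this limit lay Sfrp2 (-0.87) and Fzd2 (-0.86). In 15 of 30 members both pool 2 values lay below the other 4 arrays, against 32.6% of all genes, and in 4 both lay above, against 17.0%. The filter is a mean over all 6 arrays, 4 of them outside pool 2. A gene low only in pool 2 therefore passes it more readily than a gene high only there. Rspo1 and Rspo3 passed it through the other 4 arrays, with pool 2 values below the filter level. The 17 members below the filter had gaps of -0.67 to 0.67. The pool 2 arrays come from both genotypes and are no group of the design, and their gaps are given as a description only. The markers of mesothelium, muscle and lymphocytes given above moved with the same arrays, as did the 11 stromal progenitor markers (8 of 11 lower, median gap -0.50, summed signal 13.65 to 14.39 in control and 13.85 to 14.41 in AFO arrays). Endothelial markers were lower there in 12 of 12 (-0.68), smooth muscle markers in 7 of 9 (-0.76) and adipocyte markers in 9 of 11 (-0.13), and neutrophil markers were higher in 9 of 10 (0.80). Of all genes tested 61.5% had a lower mean in pool 2, and of the members 21 of 30 did. The part of these markers in the members' gaps was not tested.

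**Figure D2:**
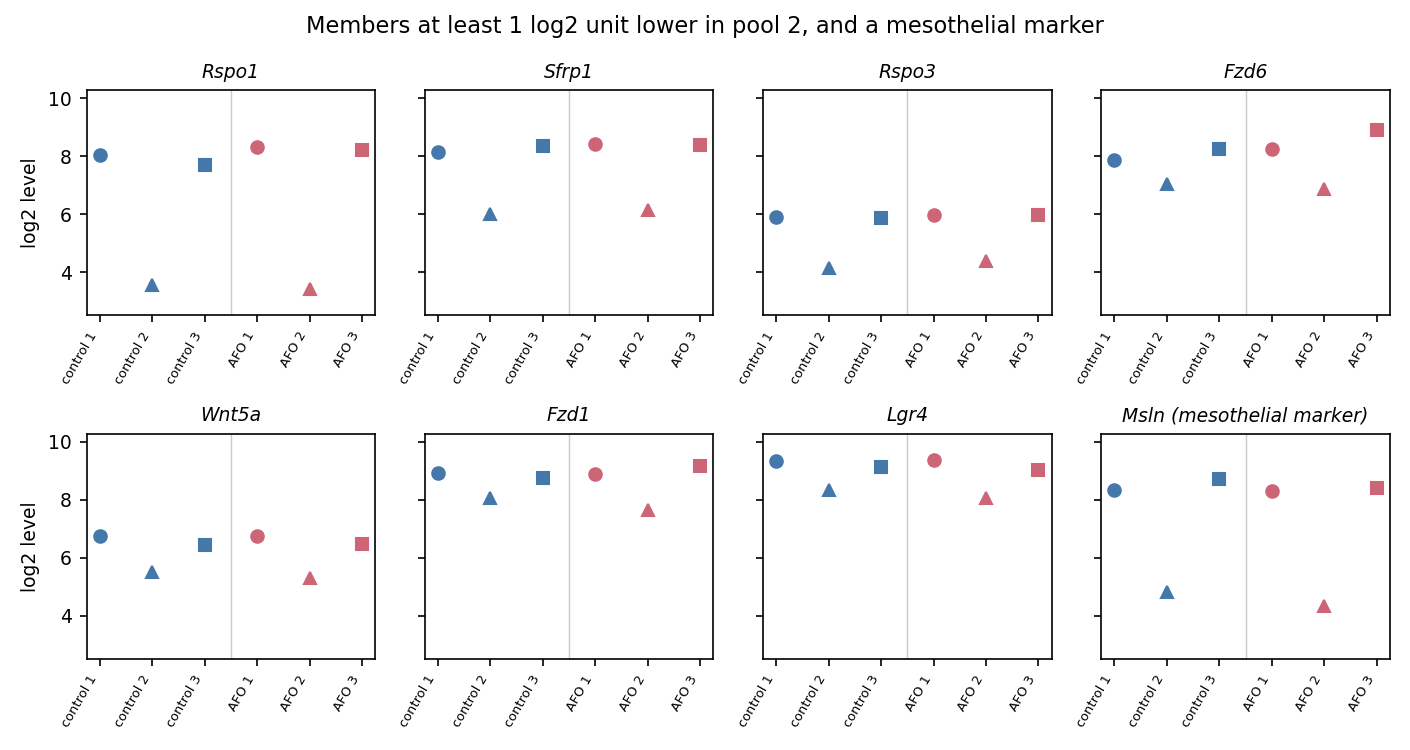
Log2 level (vertical axis) in each array (horizontal axis, control in blue and AFO in red, with circles, triangles and squares for pools 1, 2 and 3) of the 7 Wnt members at least 1 log2 unit lower in pool 2, and of Msln, a mesothelial marker. In each panel both triangles lie below the other 4 points, by 4.59 log2 units on average for Rspo1 and 1.02 for Lgr4.

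Promoter sequence from RefSeq (GRCm38.p6) was matched to 30 of the 47 members, and the 250 bases before the start are shown for Rspo1, Lgr4 and Fzd1, which were low together in pool 2, for Fzd4, the receptor whose 3 probe sets all had lower AFO means, and for Axin2, the target gene. Capitals mark matches on either strand to the TCF/LEF core CTTTGA, the CCAAT box CCAAT, the GC box GGGCGG (neighbouring GC boxes can overlap) and the TATA box TATAAA. The regions are chr4:124986180-124986429 (plus strand) for Rspo1, chr2:109917397-109917646 (plus) for Lgr4, chr5:4758217-4758466 (minus) for Fzd1, chr7:89404116-89404365 (plus) for Fzd4 and chr11:108920099-108920348 (plus) for Axin2.
Rspo1: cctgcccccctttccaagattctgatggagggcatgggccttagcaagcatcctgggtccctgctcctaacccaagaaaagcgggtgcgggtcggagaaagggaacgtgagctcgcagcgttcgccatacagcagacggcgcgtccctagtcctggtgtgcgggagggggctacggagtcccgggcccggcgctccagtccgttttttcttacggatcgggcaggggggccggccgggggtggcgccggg
Lgr4: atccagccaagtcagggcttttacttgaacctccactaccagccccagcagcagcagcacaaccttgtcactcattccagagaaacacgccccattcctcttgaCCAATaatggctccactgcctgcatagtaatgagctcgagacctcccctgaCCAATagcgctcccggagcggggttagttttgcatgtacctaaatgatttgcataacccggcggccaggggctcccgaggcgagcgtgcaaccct
Fzd1: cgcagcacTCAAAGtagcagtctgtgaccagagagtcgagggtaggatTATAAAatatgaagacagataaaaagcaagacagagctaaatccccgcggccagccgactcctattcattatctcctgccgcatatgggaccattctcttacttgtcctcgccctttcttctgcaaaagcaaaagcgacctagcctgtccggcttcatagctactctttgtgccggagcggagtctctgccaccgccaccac
Fzd4: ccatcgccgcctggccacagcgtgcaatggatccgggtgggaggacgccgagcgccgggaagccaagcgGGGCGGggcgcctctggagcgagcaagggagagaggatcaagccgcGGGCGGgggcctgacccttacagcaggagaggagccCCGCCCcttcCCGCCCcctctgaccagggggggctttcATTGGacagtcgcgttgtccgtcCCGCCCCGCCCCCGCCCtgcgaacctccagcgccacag
Axin2: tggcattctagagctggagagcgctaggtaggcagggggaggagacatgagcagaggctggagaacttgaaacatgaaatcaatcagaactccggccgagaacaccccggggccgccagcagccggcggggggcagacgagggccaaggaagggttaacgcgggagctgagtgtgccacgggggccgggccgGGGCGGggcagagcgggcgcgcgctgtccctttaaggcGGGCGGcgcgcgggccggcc
The 3 promoters of genes that were low in pool 2 share none of the 4 motifs. Rspo1 holds 0 matches, Lgr4 has 2 CCAAT boxes, and Fzd1 has 1 TCF/LEF core and 1 TATA box. Fzd4 has 7 GC boxes and 1 CCAAT box, and Axin2 has 2 GC boxes. Of all 32851 windows in the table, 13.8% held the TCF/LEF core, 33.8% the CCAAT box, 32.7% the GC box and 12.4% the TATA box, and of the 30 members with a window 4, 11, 22 and 5 did. GC content was 66.8% for Rspo1, 55.6% for Lgr4, 51.2% for Fzd1, 72.8% for Fzd4 and 69.2% for Axin2. The median was 52.4% over all windows and 68.0% over the windows of members. A match is a description of these letters and not a binding site.

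Among the 19 ligands 10 were tested, with mean levels from 5.23 to 6.80, near the filter. Wnt5a, which signals mainly outside the beta-catenin branch, was the only tested ligand with a pool gap of 1 or more. It read 6.73, 5.50 and 6.43 in control and 6.74, 5.30 and 6.46 in AFO fat, nearly equal between genotypes within each pool. A second, dimmer Wnt5a probe set above the filter did not share this. There AFO minus control was -0.21, 0.43 and -0.66 within pools 1, 2 and 3, and the pool 2 gap was -0.49. Wnt9a read 6.52, 5.89 and 6.13 in control and 6.17, 5.47 and 5.85 in AFO fat. Within pools 1, 2 and 3 the AFO minus control values were -0.35, -0.42 and -0.28, yet the groups overlapped, and the mean difference was -0.35 (SE 0.24, limma adjusted p = 1). Wnt10b, the ligand best known for restraining fat cell formation, read 5.12, 5.30 and 5.34 in control and 5.02, 5.25 and 5.38 in AFO fat, just above the filter and overlapping. Its difference was -0.037 with a 95% interval from -0.39 to 0.32. Wnt4 read 5.58, 5.77 and 5.50 in control and 5.80, 5.41 and 5.21 in AFO fat, and Wnt9b read 5.41, 5.35 and 5.19 against 5.41, 5.36 and 5.47, both overlapping. Wnt7a read 6.61, 6.75 and 6.41 in control and 6.67, 6.49 and 6.73 in AFO fat. Wnt7b read 6.82, 7.10 and 6.59 in control and 6.64, 6.68 and 6.95 in AFO fat. With Wnt3a, Wnt6 and Wnt11 included, the 9 tested ligands other than Wnt9a differed by -0.15 to 0.098 between genotypes.

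All 10 Frizzled receptors passed the filter. Fzd4 (Entrez gene 14366), a receptor for Wnt ligands and for norrin in vessels, read 9.39, 9.16 and 9.34 in control and 9.07, 8.62 and 9.27 in AFO fat. The AFO value was the lower of the pair in each pool (-0.33, -0.54 and -0.078), with a mean of 9.30 ± 0.12 in control and 8.98 ± 0.33 in AFO fat (SD, n = 3). AFO minus control was -0.32 (SE 0.19, 95% interval -0.78 to 0.14, limma adjusted p = 1). A second Fzd4 probe set, noticed after its values were seen, read 9.29, 9.07 and 9.004 in control and 8.81, 8.64 and 8.34 in AFO fat, so that here all AFO values lay below all control values. With 20967 probe sets tested singly its difference was -0.52 (SE 0.17, interval -0.93 to -0.12, limma adjusted p = 1). Of the 45 member probe sets tested singly it was the 1 with AFO below every control, where 1.50% of all probe sets were. All 12 endothelial markers, a cell type in which Fzd4 is also expressed, had lower AFO means, with a median of -0.21, and a summed signal of 12.03 to 12.71 in control and 11.82 to 12.57 in AFO arrays. This was not particular to them: all 11 adipocyte markers (median -0.20, summed signal 15.96 to 16.06 in control and 15.68 to 16.10 in AFO arrays), 8 of 9 smooth muscle markers (-0.28) and 11 of 12 macrophage markers (-0.078) also had lower AFO means. The part of these markers in the Fzd4 difference was not tested.

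**Figure D3:**
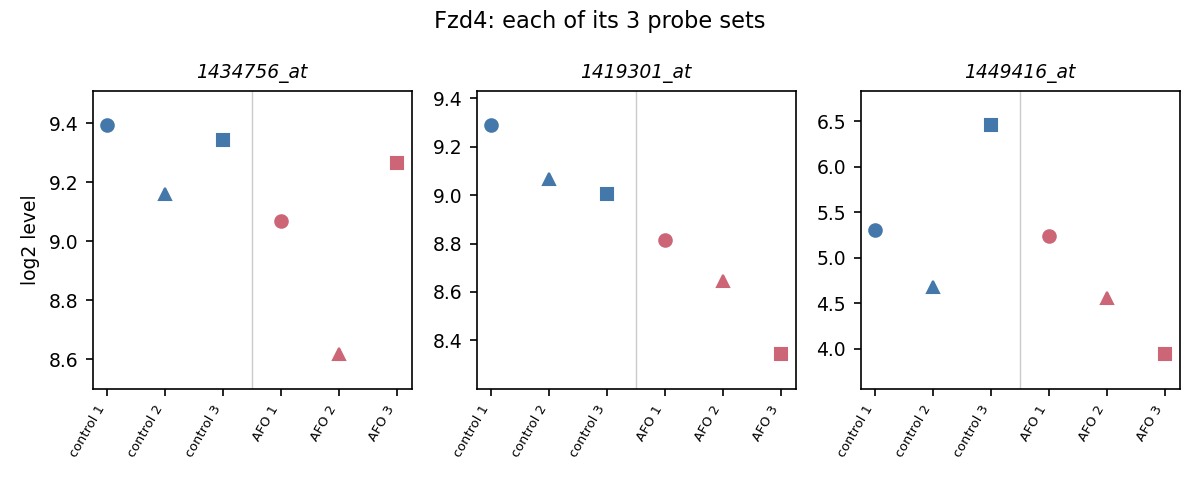
Log2 level (vertical axis, a separate scale in each panel) of the 3 Fzd4 probe sets in each array (horizontal axis, control in blue and AFO in red, with circles, triangles and squares for pools 1, 2 and 3). The left panel is the probe set with the highest mean (-0.32 between genotypes, overlapping), the middle panel the probe set without overlap (-0.52), and the right panel a dimmer one with a mean below the filter, lowest in AFO pool 3 at 3.94.

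The other receptors gave no uniform difference. Fzd6, a receptor tied to planar polarity, read 7.88, 7.04 and 8.24 in control and 8.24, 6.87 and 8.89 in AFO fat, with AFO minus control at 0.37, -0.17 and 0.66 within pools 1, 2 and 3. Fzd1, a canonical receptor, read 8.93, 8.07 and 8.74 in control and 8.88, 7.64 and 9.16 in AFO fat, low in pool 2 of both. Fzd2 read 6.64, 5.42 and 6.49 in control and 6.57, 5.54 and 5.66 in AFO fat, and AFO pool 3 joined the low pool 2 arrays. Fzd7 read 7.16, 6.81 and 7.05 in control and 7.08, 6.98 and 7.17 in AFO fat. Fzd3 read 6.24, 5.79 and 6.09 in control and 6.15, 6.01 and 6.36 in AFO fat, and Fzd10 read 6.20, 6.31 and 6.16 against 6.07, 6.21 and 6.10. All of these receptors overlapped between genotypes, and without Fzd4 and Fzd6 the 8 remaining Frizzled members, Fzd5, Fzd8 and Fzd9 included, differed by -0.27 to 0.13.

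The coreceptor Lrp6 read 9.12, 9.02 and 9.21 in control and 9.34, 8.75 and 9.16 in AFO fat, overlapping. Lrp5 read 5.33, 5.49 and 5.13 in control and 5.46, 4.63 and 5.85 in AFO fat. Its AFO values surrounded the controls, with AFO minus control at -0.85 in pool 2 and 0.72 in pool 3, so the mean difference of -0.0020 (SE 0.31) covers differences of opposite sign.

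Axin2 (Entrez gene 12006), a scaffold of the beta-catenin destruction complex whose transcription rises when the canonical pathway is active, had the largest genotype difference of the members tested. It read 7.34, 6.92 and 6.79 in control pools 1 to 3 and 7.75, 6.996 and 7.77 in AFO pools 1 to 3. AFO pools 1 and 3 lay above all controls and AFO pool 2 lay among them. The mean was 7.02 ± 0.29 in control and 7.50 ± 0.44 in AFO fat (SD, n = 3), and AFO minus control was 0.49 (SE 0.26, 95% interval -0.14 to 1.12, limma adjusted p = 1). Within pools 1, 2 and 3 the AFO value was higher by 0.41, 0.074 and 0.98. Without both pool 2 arrays the difference was 0.70 (SE 0.21, limma adjusted p = 0.508), and it was not called. A block for pool number on those 4 arrays gave 0.70 (SE 0.18, limma adjusted p = 0.0498). Axin2 was then the 1 of 30 members called, where 1.85% of all genes were, and this fit rests on 2 pairs. A second, much dimmer Axin2 probe set with a mean of 3.54, below the filter, differed by 0.067, and with probe sets averaged per gene the Axin2 difference was 0.28.

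Markers of epithelium moved with the same 2 AFO arrays. Of 12 epithelial markers 11 were higher in AFO than control in pool 1, 0 in pool 2 and 12 in pool 3, and their summed signal ran from 9.35 to 10.03 in control arrays and read 11.04, 8.95 and 10.71 in AFO pools 1, 2 and 3. Cdh16, a cadherin of kidney and duct epithelium, read 4.87 to 5.46 in control, 8.11 and 7.11 in AFO pools 1 and 3 and 4.86 in AFO pool 2. Of the 8 epididymal duct markers 7 were higher in AFO pool 1 than in control pool 1, with a summed signal of 10.47 there and 7.43 to 7.71 on the other 5 arrays. AFO pool 3, where the Axin2 difference was largest, also had the highest 3′ minus 5′ signal of the control transcripts, which rises as RNA is shortened, at 1.33 for actin and 0.38 for GAPDH against 0.73 to 0.95 and -0.12 to 0.19 on the other 5 arrays. The part of these markers and of this signal in the Axin2 difference was not tested.

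Other target genes of the pathway came from a list of 15 measured genes, and the 11 tested did not move as a group. Of the 11, 0 passed in either direction, 5 had higher and 6 lower AFO means, and the median difference was -0.025 beside -0.015 over all genes. Znrf3, a ubiquitin ligase that removes Frizzled from the surface, read 7.26, 7.34 and 7.20 in control and 7.49, 7.06 and 7.93 in AFO fat, a difference of 0.23 (SE 0.23). Nkd2, an inhibitor of Dishevelled, differed by -0.12 (SE 0.16). The 4 target genes below the filter, and so without a test, all had higher AFO means. Their differences were 0.76 (Rnf43), 0.46 (Notum), 0.36 (Tnfrsf19) and 0.18 (Sp5). Rnf43, the partner ligase of Znrf3, read 3.71, 3.90 and 3.27 in control and 4.80, 4.02 and 4.33 in AFO fat, with all AFO values above all controls. Among genes tested 2.00% had all AFO values above all controls, and no such share was computed for genes below the filter. Notum, a secreted enzyme that inactivates Wnt ligands, read 5.68 in AFO pool 1 and 4.44 to 4.68 on the other arrays. Sp5, a transcription factor induced by Wnt signals, read 5.06 and 5.32 in AFO pools 1 and 3 and 4.66 to 4.89 elsewhere. Celsr1, a planar polarity cadherin also below the filter, is not on the target list but on that of planar polarity and calcium genes. It read 3.80, 4.13 and 4.12 in control and 6.27, 4.22 and 5.73 in AFO fat, again highest in AFO pools 1 and 3. Of the 17 tested genes of its list, 12 had lower AFO means. Rnf43, Notum, Sp5 and Celsr1 were chosen after their values were seen.

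**Figure D4:**
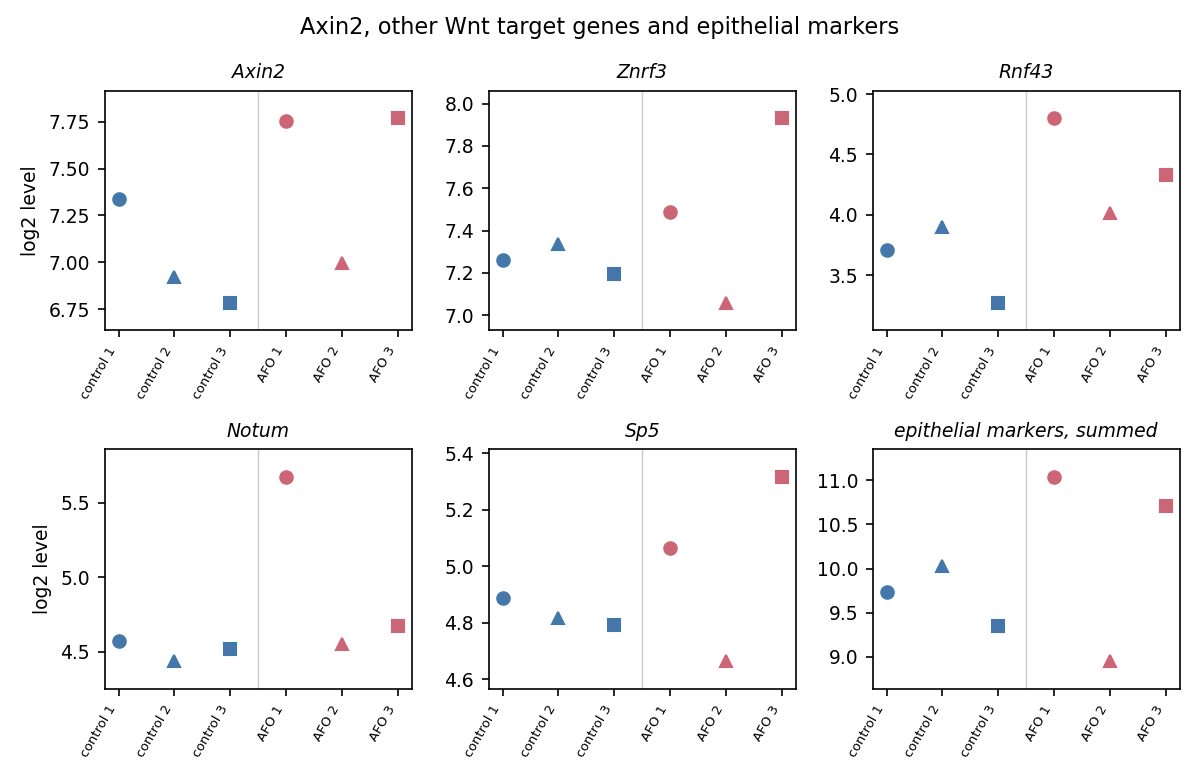
Log2 level (vertical axis, a separate scale in each panel) in each array (horizontal axis, control in blue and AFO in red, with circles, triangles and squares for pools 1, 2 and 3) of Axin2, of 4 other Wnt target genes and of 12 epithelial markers summed. In the panels of Axin2, Znrf3, Sp5 and the epithelial markers the AFO circle and square lie above every control, while the AFO triangle does not. Rnf43, Notum and Sp5 lie below the filter, were not tested and were chosen after their values were seen. Of the 11 genes tested on the target list, Znrf3 included, 5 had higher and 6 lower AFO means.

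**Figure D5:**
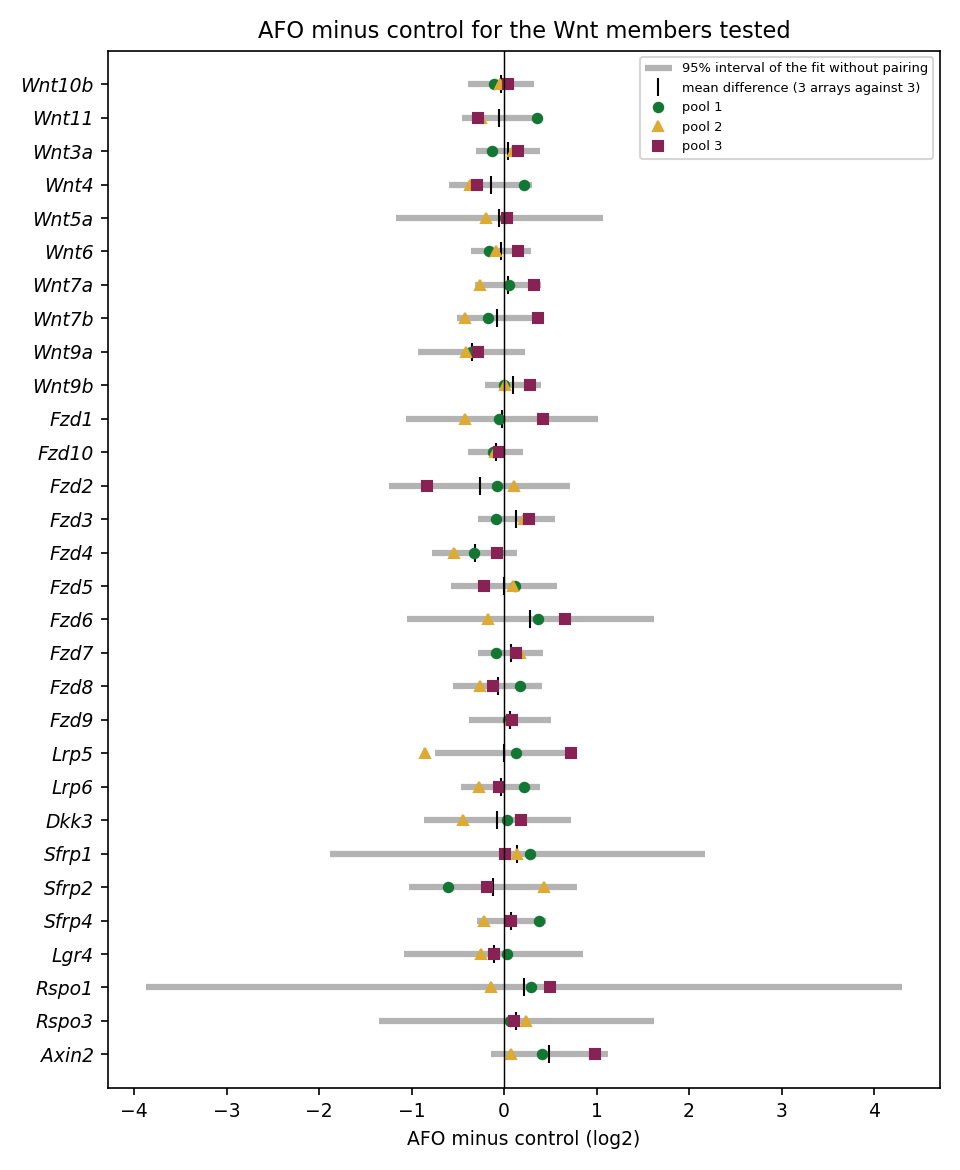
AFO minus control on the log2 scale (horizontal axis) for each of the 30 Wnt members tested (vertical axis): circles, triangles and squares are pools 1, 2 and 3, the black tick is the mean difference, and the grey bar is the 95% interval of the limma fit without pairing. All 30 bars cross 0, and the widest, of Rspo1, runs from -3.87 to 4.30.

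The rest of the pathway was read from fixed lists, with each SE from the fit without pairing. Of 2 tested genes of ligand secretion, 0 passed in either direction. Wls, the carrier that takes Wnt proteins to the surface, differed by -0.27 (SE 0.34) and read 8.03 and 7.70 in pool 2 and 8.53 to 8.96 elsewhere. Porcn, the enzyme that attaches lipid to the ligands, differed by 0.11 (SE 0.41) and had a pool 2 gap of -1.01. Both were thus low in the arrays where Rspo1 was low. Of 13 tested coreceptors and modulators 0 passed, with a median difference of -0.11. Apcdd1, a membrane inhibitor of Wnt signals, differed by -0.65 (SE 0.40), and Tspan12, a partner of Fzd4, by -0.25 (SE 0.25). Of these 13 genes 12 were lower in pool 2, where 61.5% of all genes were, among them Ror1, a receptor for Wnt5a, with a gap of -1.81, and the glypican Gpc3, with -1.16. Of 26 tested cytoplasmic and nuclear genes 0 passed, with a median of -0.041. Dvl2, a Dishevelled protein, differed by 0.23 (SE 0.13) and Tcf7l2, the main TCF factor of many tissues, by -0.48 (SE 0.28). Dvl2 was the 1 of 67 tested pathway genes with all AFO values above all controls, where 2.00% of all genes were. Lef1, a TCF/LEF factor of lymphocytes among other cells, read 6.69 and 7.25 in pool 2 and 5.34 to 5.67 elsewhere, high where the lymphocyte markers were high. Of 17 tested planar polarity and calcium genes 0 passed, with a median of -0.055. Daam1, a formin, differed by -0.27 (SE 0.22), and Nfatc4, a calcium-regulated transcription factor, by -0.18 (SE 0.18). In all, 67 pathway genes were tested, 0 passed and 0 had an unadjusted p under 0.05, where 0.959% of all genes had. With a block for pool number 0 passed and 2 of 67 had an unadjusted p under 0.05, where 4.24% of all genes had. These were Apcdd1, with AFO minus control at -0.63, -0.95 and -0.36 within pools 1, 2 and 3, and Tcf7l2, with -0.27, -0.63 and -0.55.

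The 17 members below the filter read 2.34 to 5.70 in single arrays. They were the ligands Wnt1, Wnt2, Wnt2b, Wnt3, Wnt5b, Wnt8a, Wnt8b, Wnt10a and Wnt16, the antagonists Dkk1, Dkk2, Dkk4 and Wif1, and Rspo2, Rspo4, Lgr5 and Lgr6. Dkk1, the inhibitor of the LRP coreceptors, read 3.31, 3.18 and 3.09 in control and 3.25, 3.25 and 3.29 in AFO fat. Wif1, which binds Wnt ligands, read 2.34, 2.74 and 2.50 in control and 3.04, 2.55 and 3.35 in AFO fat, among the dimmest of the array. Their differences between genotypes lay between -0.24 and 0.45, 0 of 17 had groups without overlap, and their pool 2 gaps lay between -0.67 and 0.67. Such values do not show that a transcript is absent. By the RefSeq gene table, 4 pairs of ligand genes are direct neighbours among protein-coding genes: Wnt6 with Wnt10a, Wnt3a with Wnt9a, Wnt9b with Wnt3 and Wnt10b with Wnt1. The pair tested on both sides did not share a direction, with Wnt3a at 0.040 and Wnt9a at -0.35 between genotypes, and at 0.19 and -0.49 between pools.

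Different probe sets of a member did not always give the same picture. Of 10 members with more than 1 probe set above the filter, Fzd3, Fzd7 and Sfrp1 had AFO minus control values of opposite sign, and Fzd3, Fzd6 and Sfrp1 had pool 2 gaps of opposite sign. The 5 Sfrp1 probe sets gave gaps of -3.24 to 0.21, and the only positive one was a probe set that can bind related transcripts by its name ending. These 10 members had 15 further probe sets above the filter, and in 12 of the 15 the AFO minus control value within pool 3 lay below that of the first probe set, in 3 above. It was -0.88 for the second of Lrp6 and -0.053 for its first, and -0.69 and 0.42 for those of Fzd1. The other way, it was -0.48 for a further probe set of Fzd2 and -0.83 for its first. The high 3′ minus 5′ signal of AFO pool 3 given beside Axin2 is from the same array. Its part in these values was not tested. The same count was not made for pools 1 and 2 or over all genes, so 12 of 15 is a description only. Further probe sets of the same gene are compared with the same first probe set and are not independent.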

How the data were processed

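The values analysed are the authors' deposited log2 expression levels of 45101 probe sets. RMA in Affymetrix Expression Console 1.4 produced them, per the submitters' processing notes. RMA includes quantile normalisation across arrays, so that a shift shared by most genes is not visible and differences of dim genes can be understated. The build behind the probe sets is not given in the sources used here. Arrays carry no read depth, and their number (3 per genotype) limits the precision.

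Of the probe sets, 34945 carried a single gene symbol and were used. Left out were 64 controls, 932 with more than 1 symbol and 9160 outside the annotation. Each gene was read from its brightest probe set, and 12513 genes at or above the 40th percentile (5.22) were tested. All 47 members matched the RefSeq gene table by gene ID with the same symbol. The genotypes were compared in R 4.3.3 with limma 3.58.1 (lmFit and eBayes with a mean trend, two-sided, Benjamini-Hochberg adjustment, call at 0.05), without pairing, and the fit was tested on simulated data.

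Pool numbers are the replicate numbers in the labels, which do not say what a number shares. Across genes, which are not independent, each pair of equal number had correlated deviations from its genotype's mean (r = 0.603 in pool 1, 0.806 in pool 2 and 0.605 in pool 3), so equal numbers were treated as pairs in the fit with a block. Control 1 with AFO 3 (0.447) and control 3 with AFO 1 (0.357) also correlated.

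Members, lists, the naming rule and the alternatives were chosen with earlier results of these data known. Values in every array are given for tested members among the 12 brightest, the 10 with the smallest p, the 8 with the largest pool 2 gap or the 6 with the largest shared difference in pools 1 and 3, and for 6 members well known in fat. From each pathway list 2 members are named by smallest p. The 40th percentile of all probe sets and the single testing of probe sets were added after the data were seen.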

Additional observations from a re-analysis of the deposited data

How the results depend on the processing

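With the replicate block (pool number), 2 of all genes and 0 of the Wnt members were called. Without both pool 2 arrays 74 genes and 0 members were called, and with the block added 232 genes and 1 member, Axin2 (0.70, limma adjusted p = 0.0498). Its adjusted p over the 19 alternatives ran from 0.0498 to 1. With each array left out in turn, 0 to 14 genes were called, the 14 without AFO pool 2, and 0 members. The median over the members, -0.027, ran from -0.13 to 0.12 in these fits, the highest without AFO pool 2, and the cause was not tested. No member was called without a filter (47 members tested), at the 60th percentile (14) or with probe sets averaged per gene (21). Under every alternative that gave 1 value per gene the sign held, but not the size, for Axin2 (0.28 with probe sets averaged to 0.74), Fzd4 (-0.58 to -0.13), Wnt9a (-0.52 to -0.17), Fzd2 (-0.64 to -0.036), Fzd3 (0.0069 to 0.23), Wnt4 (-0.31 to -0.013), Fzd10 (-0.13 to -0.046) and Wnt9b (0.035 to 0.14). Averaging of probe sets gave no value for Wnt9a, Wnt9b, Fzd3 and Fzd10. The single testing of probe sets is not among these alternatives, and there a further Fzd3 probe set had the opposite sign (-0.027). Leaving out single arrays turned Fzd6 (-0.16 to 0.85), Sfrp2 (-0.55 to 0.16), Sfrp4 (-0.035 to 0.16), Rspo1 (-1.22 to 1.83) and Lrp5 (-0.27 to 0.34). Array weights turned Lrp5 (0.18) and Rspo1 (-0.073), and omission of pool 2, with or without the block, turned Lrp5 (0.42). The alternatives were followed gene by gene only for members named by smallest p or by a shared difference in pools 1 and 3. Among the other members, omission of pool 2 turned Fzd1, Dkk3, Lrp6, Wnt5a, Wnt7b, Wnt11, Fzd5 and Fzd8. Signal near background limits the 17 members below the filter.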
